A study of Mus musculus with 8 samples.

Results

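The 6 libraries of mouse hearts with experimental autoimmune myocarditis fell into a set rich and a set poor in RNA of atrial muscle. The sets were chosen on a measured value, the level of Sln, which encodes sarcolipin, a small membrane protein that holds back the calcium pump of the sarcoplasmic reticulum and is mainly atrial in the mouse heart. The atrial-rich set holds the 3 libraries with at least 300 FPKM of Sln, and the atrial-poor set the 3 libraries with less than 100 FPKM. FPKM is a fragment count scaled by transcript length and by the mapped fragments of the library, so levels can be set side by side between genes. These are 6 of the 8 libraries of the series, and they were compared over the 10393 of 34745 genes with at least 1 FPKM in at least 2 libraries. Because the sets were picked on values of these same libraries, all differences between them are a description and carry no test.

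The atrial-rich libraries are Trim21 knockout replicates 1 and 2 (KO 1 and KO 2) and wild-type replicate 2 (WT 2). The atrial-poor libraries are Trim21 knockout replicate 3 (KO 3) and wild-type replicates 1 and 3 (WT 1 and WT 3). Trim21 encodes a ubiquitin ligase that also binds antibodies inside cells, and the series title names its part in IL-17A signalling and in cardiac fibroblasts. All 6 hearts are labelled day 21 of myocarditis on a Balb/c background, raised with 100 μg of a cardiac myosin heavy chain (MyHCα) peptide in complete Freund's adjuvant (CFA) on days 0 and 7. The 2 control libraries are wild-type Balb/c hearts labelled day 0, while the protocol text describes controls that received adjuvant and buffer. The sources used here do not say how Trim21 was deleted, whether atria were collected with the ventricles, or how many animals a library holds. A deposited sheet of earlier library names has day 35 in place of day 21 for the myocarditis hearts.

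Atrial and ventricular muscle cells share most of their contractile apparatus but use different myosin light chains, ion channels and secreted peptides. Atrial cells carry the light chains Myl7 and Myl4, and they store natriuretic peptides in secretory granules. The walls of the atria also border on fat, nerves and ganglia, large veins and the lungs. In bulk RNA, fewer cells of a type and less RNA per cell cannot be told apart.

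Sln and the other 3 atrial markers lie at separate loci, except that Myl7 and Myl4 share chromosome 11. In the deposited mm10 coordinates Sln lies at chr9:53850251-53853844, Myl7 at chr11:5896637-5898782, Myl4 at chr11:104550663-104595753 and Bmp10 at chr6:87428994-87437677. Promoters are shown for these markers and for Nppa, the most abundant atrial peptide gene, because these genes stood high together in the same libraries. The RefSeq table (GRCm38.p6) held 4 of the 5 genes searched, each from 250 bases before to 50 bases after the start site, and Sln had no entry. The windows are chr11:5898733-5899032 on the minus strand for Myl7, chr11:104550413-104550712 on the plus strand for Myl4, chr6:87428744-87429043 on the plus strand for Bmp10 and chr4:148000472-148000771 on the plus strand for Nppa. Capitals mark matches, on either strand, to the motifs listed after the sequences.
Myl7: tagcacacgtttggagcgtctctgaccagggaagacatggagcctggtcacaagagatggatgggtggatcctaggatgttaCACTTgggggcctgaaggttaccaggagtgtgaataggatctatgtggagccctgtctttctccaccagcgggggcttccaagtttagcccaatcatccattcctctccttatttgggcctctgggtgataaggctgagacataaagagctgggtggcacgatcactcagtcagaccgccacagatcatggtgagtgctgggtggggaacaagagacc
Myl4: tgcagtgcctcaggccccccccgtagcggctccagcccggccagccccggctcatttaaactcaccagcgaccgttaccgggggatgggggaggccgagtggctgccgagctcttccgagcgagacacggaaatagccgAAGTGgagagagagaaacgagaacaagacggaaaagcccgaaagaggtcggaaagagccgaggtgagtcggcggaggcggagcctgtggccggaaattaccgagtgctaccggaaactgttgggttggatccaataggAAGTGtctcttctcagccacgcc
Bmp10: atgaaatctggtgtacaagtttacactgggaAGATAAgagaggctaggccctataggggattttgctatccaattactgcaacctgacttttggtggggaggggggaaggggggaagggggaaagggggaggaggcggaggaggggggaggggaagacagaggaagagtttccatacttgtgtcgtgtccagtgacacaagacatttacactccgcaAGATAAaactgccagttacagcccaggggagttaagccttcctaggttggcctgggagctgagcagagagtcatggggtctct
Nppa: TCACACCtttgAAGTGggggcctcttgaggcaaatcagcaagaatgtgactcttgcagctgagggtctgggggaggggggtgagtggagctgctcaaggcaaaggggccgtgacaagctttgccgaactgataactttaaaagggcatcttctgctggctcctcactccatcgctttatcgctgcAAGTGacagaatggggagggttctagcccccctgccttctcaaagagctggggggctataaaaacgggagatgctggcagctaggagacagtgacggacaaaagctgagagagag

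Motifs of cardiac transcription factors were searched as exact letters on both strands. The T-box half-site GGTGTGA stood in the Nppa window, 1 time, and in 3.98% of 32851 promoters of the table. The GATA site AGATAA stood 2 times in the Bmp10 window and in 11.2% of all promoters. The Nkx2-5 site AAGTG stood 1 time in the Myl7 window, 2 times in the Myl4 window and 2 times in the Nppa window, beside 46.4% of all promoters. No match to the COUP-TF half-site AGGTCA (16.3% of all promoters) or the MEF2 site TATTTATA (1.70%) was in the 4 windows, and no matches overlapped. A match is only a run of letters, and none of these describes a bound site.

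Sln itself stood at 531, 421 and 395 FPKM in KO 1, KO 2 and WT 2, against 0.119, 15.5 and 58.9 FPKM in KO 3, WT 1 and WT 3, and 0.459 and 0.132 FPKM in control 1 and control 2. WT 2 was the atrial-rich library nearest the limit from above and WT 3 the atrial-poor library nearest from below. The atrial-poor set was therefore not uniform: KO 3 was at the level of the controls and WT 3 far above it.

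Myl7, the atrial regulatory light chain, was at 1640, 1191 and 977 FPKM in KO 1, KO 2 and WT 2. It was at 0.621, 48.6 and 169 FPKM in KO 3, WT 1 and WT 3, and at 1.20 and 1.04 FPKM in the controls. The atrial-poor libraries kept the same order as for Sln, and the log2 difference of the means, atrial-rich minus atrial-poor on log2(FPKM + 1), was 5.70 (SE 2.02, n = 3 each). Myl4, the atrial essential light chain, was at 214, 167 and 157 FPKM in KO 1, KO 2 and WT 2, against 0.483, 7.61 and 29.0 FPKM in KO 3, WT 1 and WT 3 and 0.595 and 0.476 FPKM in the controls. Its log2 difference was 4.62 (SE 1.27, n = 3 each).

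Bmp10, a secreted growth factor that adult mouse hearts make mainly in the right atrium, was at 49.0, 11.7 and 60.8 FPKM in KO 1, KO 2 and WT 2. It was listed at 0 in KO 3, WT 1, WT 3 and both controls, where 3 fragments would correspond to 0.0396 to 0.0466 FPKM. Unlike Sln and the light chains, Bmp10 did not trace the gradient inside the atrial-poor set: WT 3 had 13.1% of the atrial-rich mean of Sln, and Bmp10 was still at 0 there. Inside the atrial-rich set Bmp10 was lowest in KO 2, with 28.8% of the set's mean, while Sln in KO 2 was at 93.7% of its mean. The summed level of the 4 genes was 2434, 1791 and 1590 FPKM in KO 1, KO 2 and WT 2, against 1.22, 71.8 and 257 FPKM in KO 3, WT 1 and WT 3 and 2.26 and 1.65 FPKM in the controls.

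**Figure D1:**
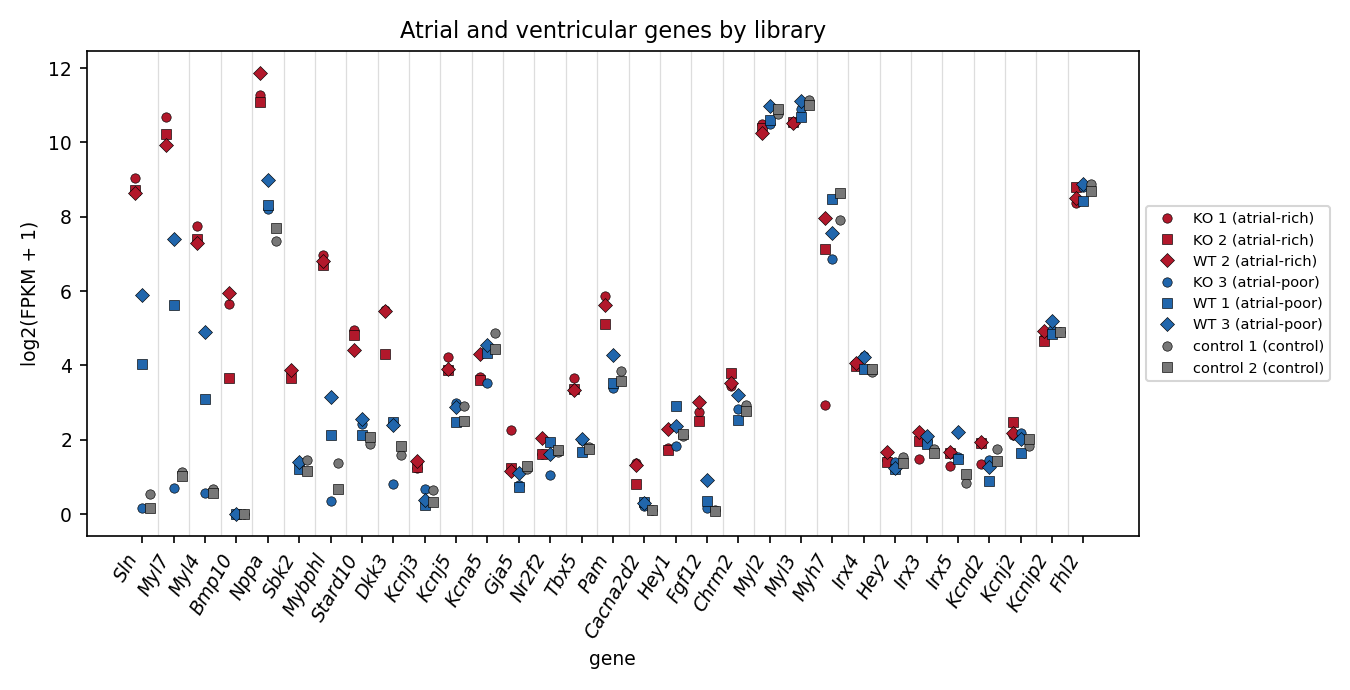
Level of each atrial and ventricular gene, as log2(FPKM + 1), in every library, with the atrial-rich libraries (red) left of the atrial-poor (blue) and control (grey) libraries. The first 4 genes are Sln and the other 3 markers; among them the points of the atrial-poor libraries spread widely, while the ventricular genes on the right lie at similar levels in all 3 groups apart from the low Myh7 value of KO 1.

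Myl7, Myl4 and Mybphl ordered KO 3, WT 1 and WT 3 as Sln did. For Sln, Myl7, Myl4 and Mybphl, the level relative to the atrial-rich mean was 0.0264% to 0.269% in KO 3, 2.99% to 4.24% in WT 1 and 7.02% to 16.2% in WT 3. It was 0.0947% to 1.39% in control 1 and 0.0294% to 0.519% in control 2. The ranges of KO 3, WT 1 and WT 3 did not overlap each other. Mybphl, a myosin-binding protein of atrial muscle that was not used in the rule, stood at 125, 103 and 111 FPKM in KO 1, KO 2 and WT 2, against 0.287, 3.38 and 7.93 FPKM in KO 3, WT 1 and WT 3 and 1.57 and 0.586 FPKM in the controls.

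**Figure D2:**
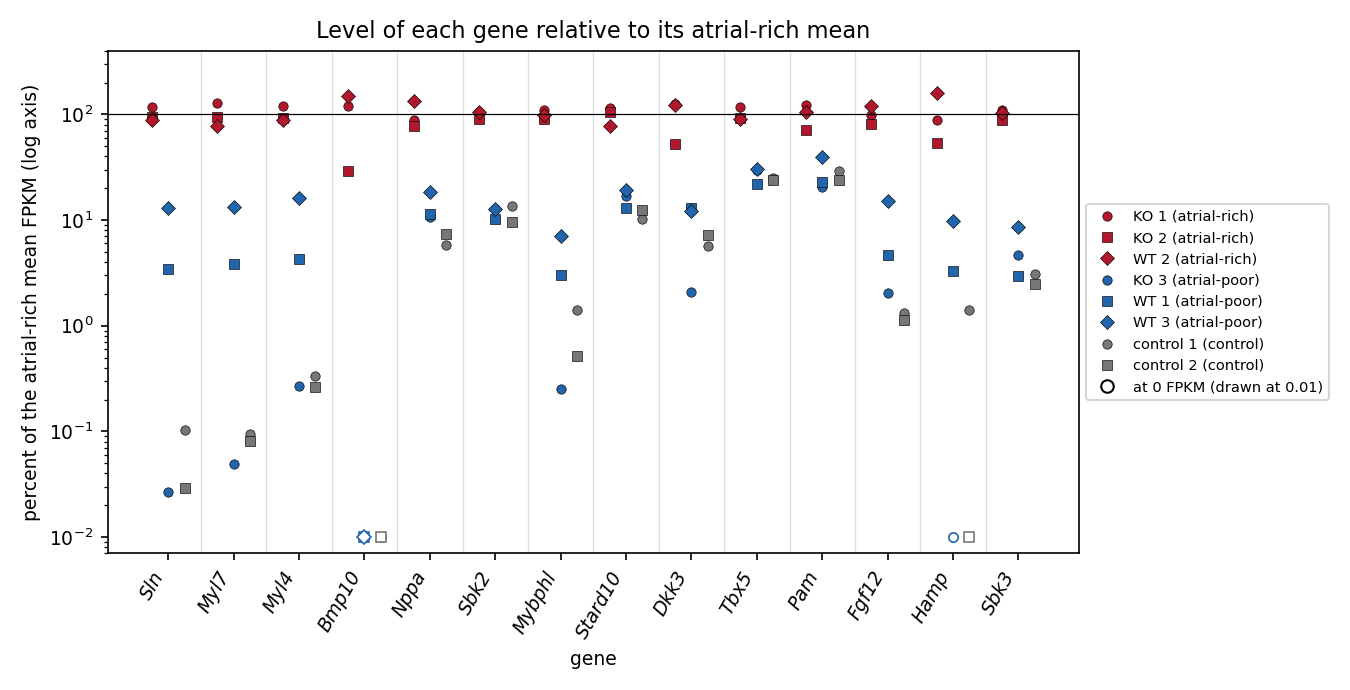
Level of 14 genes in every library as a percentage of the mean FPKM of the atrial-rich libraries, on a log axis, with open symbols for genes at 0. KO 3 lies lowest of the day 21 libraries for Sln, Myl7 and Myl4, Bmp10 is at 0 in all 5 other libraries, and Tbx5 stays at 21.9% to 30.3% in the atrial-poor libraries.

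Across all 10393 genes, 683 had every atrial-rich library above every atrial-poor library (6.57%) and 368 had every atrial-rich library below (3.54%). A gene is called separated here when the sets did not overlap and the means differed by at least 2-fold on the log2(FPKM + 1) scale. By that measure 73 genes were separated upward (0.702%) and 6 downward (0.0577%). The median log2 difference of all tested genes was -0.01. Of the 73 genes, 72 were also above both controls in every atrial-rich library, and 34 were under 1 FPKM in all 5 other libraries. KO 1 was the highest of the atrial-rich libraries in 50 of the 73 genes, WT 2 in 16 and KO 2 in 7. KO 3 alone was the lowest of the atrial-poor libraries in 36 of them, WT 1 in 16 and WT 3 in 12, and in 9 the lowest value was shared. The filter can help to set such a difference: 37 of the 73 passed it only through the atrial-rich libraries, beside 445 of all 10393 genes. For these 37, standing above the controls was partly set by the filter.

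**Figure D3:**
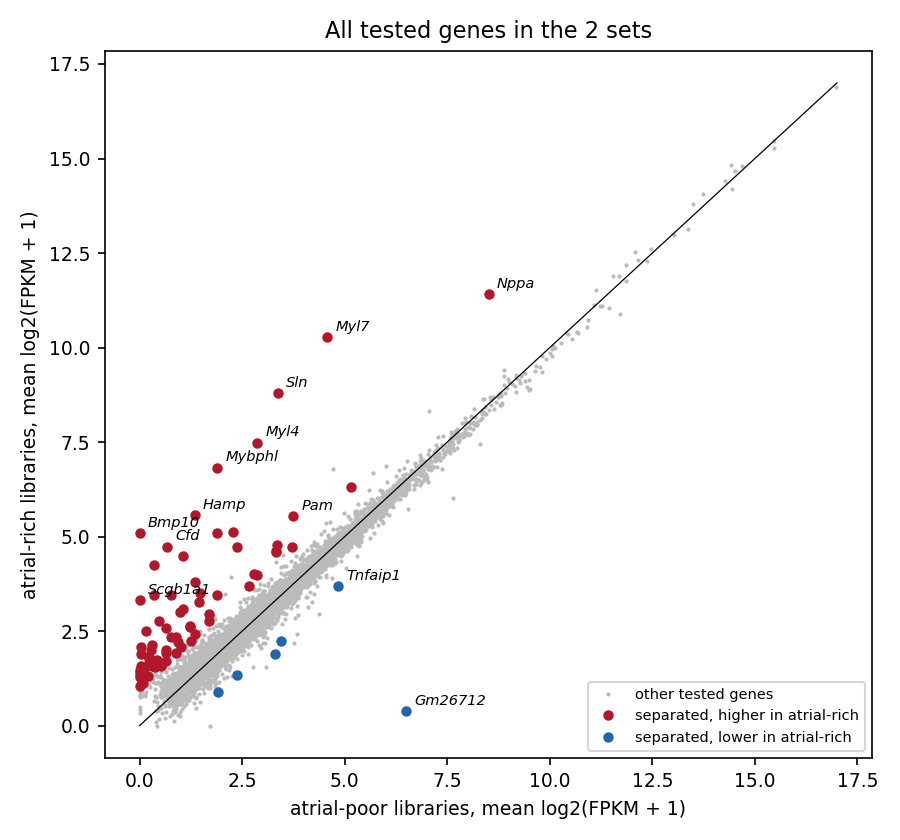
Mean log2(FPKM + 1) of every tested gene in the atrial-rich libraries (vertical axis) against the atrial-poor libraries (horizontal axis), with the line of equal levels. The 73 genes separated upward (red) lie above the line and mostly at the low end of the horizontal axis, and the 6 separated downward (blue) lie below it, Gm26712 farthest away.

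Of 19 further atrial chamber genes, 16 passed the filter on low values, 13 of these did not overlap between the sets, all with the atrial-rich libraries higher, and 9 were separated. Over all genes, 6.57% were higher without overlap and 0.702% were separated upward. Of the 16 genes, 3 passed the filter only through the atrial-rich libraries, and 1 of these 3 was separated. The median log2 difference of the 16 was 1.39, beside -0.01 over all genes. These genes were listed with earlier results of the same libraries known, so the count is not independent of the choice of sets. Cacna1d and Nr2f1 were among the genes that did not pass the filter.

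Genes of secreted products and of their processing were separated too, among them Nppa, Pam and Dkk3. Nppa, which encodes atrial natriuretic peptide, was at 2458, 2158 and 3749 FPKM in KO 1, KO 2 and WT 2, against 297, 317 and 512 FPKM in KO 3, WT 1 and WT 3 and 162 and 206 FPKM in the controls. Its order inside the sets differed from that of Sln, since WT 2 was highest and KO 3 was close to WT 1, and all 3 atrial-poor libraries stood above both controls. The log2 difference was 2.89 (SE 0.34, n = 3 each). Pam, the amidating enzyme that lies in the membrane of atrial secretory granules, was at 57.6, 33.4 and 48.7 FPKM in KO 1, KO 2 and WT 2, against 9.59, 10.6 and 18.5 FPKM in KO 3, WT 1 and WT 3 and 13.5 and 11.0 FPKM in the controls. Dkk3, a secreted member of the Dickkopf family, was at 44.1, 18.7 and 43.4 FPKM in the atrial-rich libraries KO 1, KO 2 and WT 2, against 0.746, 4.55 and 4.28 FPKM in KO 3, WT 1 and WT 3. Dkk3 thus shared with Bmp10 a KO 2 value below those of KO 1 and WT 2.

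On the log2(FPKM + 1) scale, ion channels and their partners other than Fgf12 differed less than Nppa, Pam and Dkk3. That scale understates changes of low genes such as Kcnj3. Kcnj5, a subunit of the acetylcholine-activated potassium channel of atrial cells, was separated at 17.6, 13.6 and 14.1 FPKM in KO 1, KO 2 and WT 2, against 6.90, 4.56 and 6.44 FPKM in KO 3, WT 1 and WT 3. Its partner subunit Kcnj3 was at 1.36, 1.39 and 1.67 FPKM in the atrial-rich libraries, against 0.597, 0.188 and 0.307 FPKM in the atrial-poor ones, which did not overlap but differed by less than the 2-fold limit on the log2(FPKM + 1) scale (log2 difference 0.87). Chrm2, the muscarinic receptor that opens this channel, was likewise without overlap, at 9.82, 12.8 and 10.6 FPKM in the atrial-rich and 6.17, 4.78 and 8.18 FPKM in the atrial-poor libraries. The receptor and both subunits of this pathway therefore stood on the same side, with log2 differences of 0.73 to 1.22. Fgf12, an intracellular partner of sodium channels, had the widest gap of this group, at 5.77, 4.73 and 7.03 FPKM in KO 1, KO 2 and WT 2, against 0.120, 0.272 and 0.875 FPKM in KO 3, WT 1 and WT 3.

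Cacna2d2, an auxiliary subunit of calcium channels, stood at 1.59, 0.751 and 1.51 FPKM in the atrial-rich libraries KO 1, KO 2 and WT 2 and at 0.166, 0.25 and 0.229 FPKM in KO 3, WT 1 and WT 3. Gja5, which encodes connexin 40 of atrial muscle, conduction tissue and arteries, stood at 3.82, 1.37 and 1.23 FPKM in the atrial-rich and at 0.739, 0.645 and 1.14 FPKM in the atrial-poor libraries, with both controls at 1.31 and 1.44 FPKM. Without KO 1 the atrial-rich Gja5 values lay around those of the controls. Kcna5, the ultra-rapid potassium channel, overlapped, at 12.0, 11.3 and 18.9 FPKM in KO 1, KO 2 and WT 2, against 10.5, 19.0 and 22.5 FPKM in KO 3, WT 1 and WT 3 and 28.6 and 20.6 FPKM in the controls.

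Among the transcription factors of the list only Tbx5 was separated. Tbx5, a T-box factor of the atria and the conduction system, was at 11.7, 9.25 and 9.11 FPKM in KO 1, KO 2 and WT 2, against 3.01, 2.19 and 3.04 FPKM in KO 3, WT 1 and WT 3 and 2.48 and 2.38 FPKM in the controls. The 3 atrial-poor libraries lay close to the controls and close to each other, unlike their spread for Sln. Nr2f2, an atrial identity factor that veins also express, overlapped, at 2.04, 2.09 and 3.12 FPKM in the atrial-rich and 1.08, 2.85 and 2.09 FPKM in the atrial-poor libraries. Hey1, a Notch target of developing atria and of vessels, overlapped as well, at 2.42, 2.33 and 3.92 FPKM in the atrial-rich and 2.59, 6.53 and 4.15 FPKM in the atrial-poor libraries. Sbk2, a kinase gene of atrial muscle, was at 13.5, 11.6 and 13.6 FPKM in the atrial-rich and 1.65, 1.33 and 1.64 FPKM in the atrial-poor libraries, and Stard10, a lipid transfer protein, at 30.1, 27.4 and 20.4 FPKM in the atrial-rich and 4.35, 3.35 and 4.95 FPKM in the atrial-poor libraries. For both genes the atrial-poor libraries again lay close together, and the log2 differences were 2.45 for Sbk2 (SE 0.09) and 2.37 for Stard10 (SE 0.21), n = 3 each.

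None of the 11 ventricular genes was separated, and their median log2 difference was -0.14. Myl2, the ventricular regulatory light chain, overlapped, at 1451, 1342 and 1214 FPKM in KO 1, KO 2 and WT 2, against 1437, 1558 and 2035 FPKM in KO 3, WT 1 and WT 3 and 1733 and 1901 FPKM in the controls. Myl3, the ventricular essential light chain, did not overlap, with 1480, 1495 and 1479 FPKM in the atrial-rich and 1912, 1649 and 2215 FPKM in the atrial-poor libraries (log2 difference -0.36, SE 0.12, n = 3 each). The atrial-rich libraries thus held abundant ventricular light chain RNA, and their summed ventricular list reached 3319, 3477 and 3364 FPKM in KO 1, KO 2 and WT 2, against 3966, 3959 and 4977 FPKM in KO 3, WT 1 and WT 3 and 4767 and 4824 FPKM in the controls.

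Hey2, a ventricular relative of Hey1, was higher without overlap, at 1.75, 1.65 and 2.17 FPKM in the atrial-rich and 1.65, 1.34 and 1.38 FPKM in the atrial-poor libraries, although KO 2 and KO 3 differ only beyond the digits shown. Irx4, Irx3 and Irx5, homeobox factors of the ventricle, overlapped with log2 differences of -0.09, -0.10 and -0.21. So did the potassium channel genes Kcnd2 (0.53), Kcnj2 (0.32) and Kcnip2 (-0.22) and the sarcomeric adaptor Fhl2 (-0.14). Myh7, the slow myosin heavy chain, ranged most of all, at 6.65, 139 and 251 FPKM in KO 1, KO 2 and WT 2, against 115, 359 and 190 FPKM in KO 3, WT 1 and WT 3 and 240 and 400 FPKM in the controls. The low value of KO 1 gave it a log2 difference of -1.63 with an SE of 1.63. Of 8 stress genes of heart muscle, to which Myh7 and Nppa also belong, Nppa alone was without overlap. Nppb, the relative of Nppa that ventricular muscle makes under load, overlapped, at 417, 411 and 650 FPKM in KO 1, KO 2 and WT 2, against 517, 772 and 1002 FPKM in KO 3, WT 1 and WT 3.

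Genes shared by both chambers differed little. Of 15 sarcomere genes, Myh6, Actc1, Ttn and Ldb3 were higher and Csrp3 lower in the atrial-rich libraries without overlap, and none was separated. Over all genes, 6.57% were higher and 3.54% lower without overlap. Myh6, the fast myosin heavy chain, was at 2734, 3172 and 2987 FPKM in KO 1, KO 2 and WT 2, against 2469, 2390 and 1904 FPKM in KO 3, WT 1 and WT 3, with the controls at 3381 and 3014 FPKM. Of 14 calcium handling genes, 3 were higher without overlap and S100a1 lower, beside the same shares of all genes. Atp2a2, the calcium pump on which sarcolipin acts, was one of the higher genes, at 628, 803 and 607 FPKM in the atrial-rich and 553, 360 and 526 FPKM in the atrial-poor libraries. The others were Ryr2, the calcium release channel, with a log2 difference of 0.74, and Cacnb2, a calcium channel subunit, with 0.49.

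Of 12 conduction system genes, 5 passed the filter. Hcn4, the pacemaker channel of the sinus node, was higher without overlap, at 2.94, 3.53 and 2.08 FPKM in KO 1, KO 2 and WT 2, against 1.77, 0.348 and 0.870 FPKM in KO 3, WT 1 and WT 3 and 0.747 and 0.251 FPKM in the controls. Its log2 difference of 0.99 was just under the 2-fold limit. Cacna1g, a T-type calcium channel, was the other gene without overlap (0.30). These 2 of 5 genes stand beside 6.57% of all genes, and 1 of the 5 passed the filter only through the atrial-rich libraries. Shox2, a sinus node transcription factor under the filter, was at 0.682, 0.415 and 0.389 FPKM in the atrial-rich and 0, 0.111 and 0.0456 FPKM in the atrial-poor libraries.

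Outside the chamber lists, the separated genes with a mean of at least 5 FPKM in the higher set were ranked by size, and those not yet described are given next. Sbk3, a second SH3-binding kinase, was at 23.5, 18.7 and 21.9 FPKM in KO 1, KO 2 and WT 2, against 1.01, 0.626 and 1.82 FPKM in KO 3, WT 1 and WT 3 and 0.654 and 0.525 FPKM in the controls. Hamp, which encodes the iron hormone hepcidin, was at 45.6, 27.4 and 80.8 FPKM in KO 1, KO 2 and WT 2, against 0, 1.70 and 5.03 FPKM in KO 3, WT 1 and WT 3 and 0.721 and 0 FPKM in the controls. Hamp had KO 3 lowest and WT 3 highest among the atrial-poor libraries, while Sbk3 had WT 1 lowest and WT 3 highest. Hamp has a near copy, Hamp2, which was at 1.11, 0.897 and 1.33 FPKM in the atrial-rich and 0.312, 0 and 0.263 FPKM in the atrial-poor libraries, so reads shared between the copies could have been split by the counting.

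Mlana, a melanosome gene of pigment cells, was at 8.68, 7.18 and 16.0 FPKM in KO 1, KO 2 and WT 2, against 0, 1.00 and 1.44 FPKM in KO 3, WT 1 and WT 3 and 0 and 0.109 FPKM in the controls. Its highest value lay in WT 2, as for Nppa, Hamp and Bmp10. Cyp2e1, an ethanol-metabolizing cytochrome of liver and fat, was at 23.0, 3.64 and 10.6 FPKM in KO 1, KO 2 and WT 2, against 0.0334, 0.0761 and 0.904 FPKM in KO 3, WT 1 and WT 3, with both controls at 0. Its order inside the atrial-rich set was that of the fat genes described next.

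Adipocyte genes were separated in 9 of the 12 cases that passed the filter, out of 13 listed, beside 0.702% of all genes. Except for Scd1, these 9 passed the filter only through the atrial-rich libraries, so the share among tested genes is partly set by the filter. Adipoq, the hormone adiponectin that only fat cells make in quantity, was at 10.6, 1.96 and 4.20 FPKM in KO 1, KO 2 and WT 2, against 0.0764, 0 and 0.258 FPKM in KO 3, WT 1 and WT 3 and 0 in both controls. Cfd, the fat-derived complement factor adipsin, was at 75.8, 12.9 and 16.8 FPKM in KO 1, KO 2 and WT 2, against 0.0662, 0.377 and 1.71 FPKM in KO 3, WT 1 and WT 3. Ucp1, the heat-producing carrier of brown fat, was at 4.95, 1.67 and 3.77 FPKM in KO 1, KO 2 and WT 2, against 0.0743, 0 and 0 FPKM in KO 3, WT 1 and WT 3. KO 1 was the highest library for each of the 9 genes. KO 2, with slightly more Sln than WT 2, had less of each of the 9 than WT 2.

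Car3, a carbonic anhydrase of fat and muscle, was at 41.8, 9.63 and 14.2 FPKM in the atrial-rich libraries KO 1, KO 2 and WT 2, against 0.0985, 0.224 and 0.536 FPKM in KO 3, WT 1 and WT 3. Scd1, a fatty acid desaturase, was at 68.9, 22.0 and 24.9 FPKM in the atrial-rich and 2.70, 3.75 and 5.43 FPKM in the atrial-poor libraries. The remaining separated genes were the lipid droplet proteins Plin1 and Cidec, the hormone resistin (Retn) and the enzyme Pck1, with log2 differences of 1.29, 1.87, 1.53 and 1.35. Fabp4, Cidea and Thrsp, which muscle or vessels of the heart also express, overlapped, and outside KO 1 they made up most of the summed list. The sum was 353, 161 and 195 FPKM in KO 1, KO 2 and WT 2, against 112, 156 and 196 FPKM in KO 3, WT 1 and WT 3. Of the 13 listed genes none was at 0 in KO 1, KO 2 and WT 2, while 3, 4 and 4 were at 0 in KO 3, WT 1 and WT 3, and 5 and 4 in the controls. The part that fat tissue has in the differences between the sets was not tested.

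**Figure D4:**
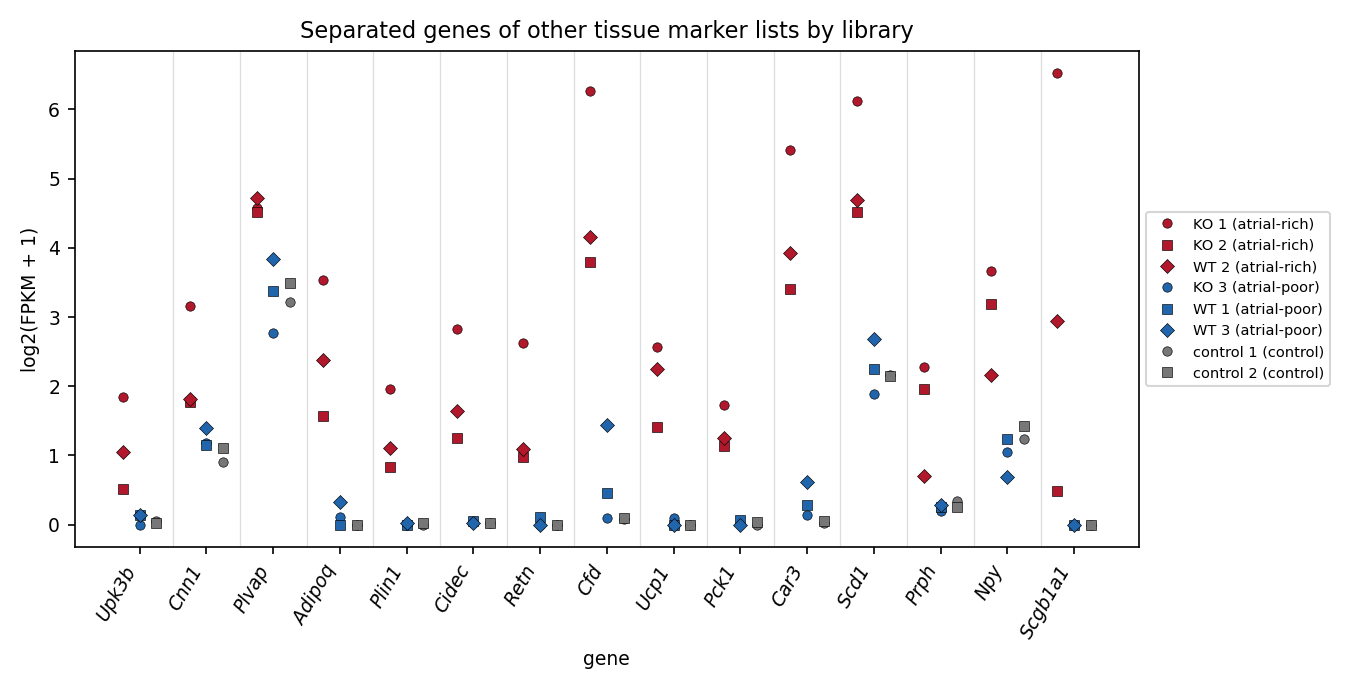
Level, as log2(FPKM + 1), of the separated genes from the marker lists of fat, nerve, lung, epicardium, smooth muscle and endothelium in every library, atrial-rich (red) left of atrial-poor (blue) and control (grey). KO 1 is the highest atrial-rich library for each fat gene and for Scgb1a1, while Plvap is close in KO 1, KO 2 and WT 2.

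Nerve genes were also higher in the atrial-rich set, with another order of libraries. Of 15 Schwann cell and neuron markers, 9 passed the filter, 4 did not overlap and 2 were separated, with a median log2 difference of 0.60. Over all genes, 6.57% were higher without overlap and 0.702% were separated upward. Of the 9 markers, 2 passed the filter only through the atrial-rich libraries, among them the separated gene Prph. Npy, the transmitter of sympathetic neurons, was at 11.7, 8.13 and 3.46 FPKM in KO 1, KO 2 and WT 2, against 1.08, 1.35 and 0.608 FPKM in KO 3, WT 1 and WT 3 and 1.36 and 1.68 FPKM in the controls. Prph, a filament of peripheral neurons, was at 3.83, 2.90 and 0.635 FPKM in the atrial-rich and 0.141, 0.193 and 0.223 FPKM in the atrial-poor libraries. KO 1 and KO 2 were both above WT 2 for these genes, whereas KO 2 was below WT 2 for the separated fat genes.

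Further neuronal genes were among the 73 without being listed. Tubb3, a neuronal tubulin, was at 5.57, 5.03 and 1.08 FPKM in KO 1, KO 2 and WT 2, against 0.229, 0.260 and 0.184 FPKM in KO 3, WT 1 and WT 3. Cartpt, a neuropeptide precursor, was at 2.98, 3.0 and 0.373 FPKM in KO 1, KO 2 and WT 2 and listed at 0 in KO 3, WT 1, WT 3 and both controls. They were chosen after their values were seen. Another member without overlap was Dbh, the noradrenaline-making enzyme, at 4.36, 3.87 and 4.71 FPKM in the atrial-rich and 2.19, 2.45 and 2.92 FPKM in the atrial-poor libraries. The summed list was 35.7, 29.4 and 19.8 FPKM in KO 1, KO 2 and WT 2, against 10.6, 13.6 and 12.3 FPKM in KO 3, WT 1 and WT 3 and 11.1 and 12.6 FPKM in the controls. What nerve tissue contributed was not tested.

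Scgb1a1, the secretoglobin of airway club cells, was at 90.9, 0.403 and 6.72 FPKM in KO 1, KO 2 and WT 2 and at 0 in KO 3, WT 1, WT 3 and both controls. These values correspond to about 646, 3 and 48.9 fragments, so the KO 2 value rests on 3 fragments. It was the only 1 of 6 lung markers to pass the filter. Sftpc, the surfactant protein of the alveoli, was at 0.332, 0.397 and 0 FPKM in KO 1, KO 2 and WT 2 and at 0 elsewhere, and Cldn18 was at 0 in all 8 libraries. What airway tissue contributed was not tested.

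Other tissue lists showed single separated genes only, beside 0.702% of all genes separated upward. Plvap, a protein of the diaphragms that span pores of endothelial cells, was the only separated gene of 12 endothelial markers, at 22.8, 21.9 and 25.4 FPKM in KO 1, KO 2 and WT 2, against 5.79, 9.35 and 13.2 FPKM in KO 3, WT 1 and WT 3 and 8.30 and 10.2 FPKM in the controls. Npr3 and Vwf, which mark endocardium and larger vessels, were higher without overlap (log2 differences 0.75 and 0.87), while the general markers Cdh5, Tek, Eng, Pecam1 and Tie1 had log2 differences of 0.01 to 0.02. Of all 12 endothelial markers, 9 had a positive and 3 a negative difference, the lowest being -0.12 for Kdr. Upk3b, a mesothelial gene, was separated at 2.61, 0.434 and 1.07 FPKM in the atrial-rich and 0, 0.0984 and 0.0974 FPKM in the atrial-poor libraries, as 1 of 4 tested genes of epicardium and mesothelium. It was among 2 of these 4 that passed the filter only through the atrial-rich libraries. Cnn1, a smooth muscle gene, was separated at 7.89, 2.43 and 2.53 FPKM in the atrial-rich and 1.26, 1.23 and 1.63 FPKM in the atrial-poor libraries, as 1 of 10 tested. None of the 5 tested valve and cartilage genes was without overlap, and of 2 tested skeletal muscle genes Atp2a1 was (log2 difference 0.98).

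In the lists of inflammation, fibrosis and energy metabolism no gene was separated, beside 0.702% of all genes separated upward and 0.0577% downward. At such shares, lists of this size would hold few separated genes in any case. Over all genes, 6.57% were higher and 3.54% lower without overlap. No member of the lists of 13 macrophage, 8 MHC class II, 12 interferon response, 15 fibroblast and matrix, 12 clock, 9 heat shock, 9 immediate early, 12 fatty acid oxidation or 2 lymphoid genes tested was free of overlap. Their medians were -0.07, -0.02, -0.26, 0.08, -0.43, -0.40, -0.15, 0.06 and 0.15 in that order, and those of the MHC class II, macrophage, fibroblast, clock, fatty acid oxidation and immediate early lists had the other sign under at least 1 alternative. All 12 interferon response and all 9 heat shock genes tested had a negative difference, though each overlapped. The medians of the interferon, heat shock and clock lists, knockout minus wild type, were also negative (-0.49, -0.88 and -1.34). The atrial-rich set holds more knockout libraries than the atrial-poor set, so part of these differences may follow genotype, which was not tested. A gene that differs by genotype also tends to overlap, because each set holds libraries of both genotypes. Of 13 oxidative phosphorylation genes, 3 (Ndufa1, Cox5a and Cox7a1) were lower without overlap by less than the 2-fold limit, beside 3.54% of all genes, as was 1 of 5 erythrocyte genes (Alas2). The summed macrophage markers were 313, 291 and 531 FPKM in KO 1, KO 2 and WT 2, against 254, 514 and 442 FPKM in KO 3, WT 1 and WT 3, so that the knockout libraries were low in both sets.

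Of 42 immunoglobulin genes tested, 31 passed the filter only through the atrial-rich libraries, so most were tested because they were high there. Separated upward were 5 of the 42, beside 0.702% of all genes, and 4 of these 5 passed the filter only through the atrial-rich libraries. The 5 were 3 antibody light chain variable segments (Igkv4-91, Igkv14-126 and Igkv10-94) and 2 heavy chain constant regions. Ighm, the constant region of IgM, was at 22.5, 27.9 and 20.4 FPKM in KO 1, KO 2 and WT 2, against 7.68, 10.1 and 9.61 FPKM in KO 3, WT 1 and WT 3 and 3.12 and 4.59 FPKM in the controls. Ighg2c was at 1.69, 1.82 and 2.60 FPKM in the atrial-rich and 0.949, 0.288 and 0.178 FPKM in the atrial-poor libraries, with both controls at 0. Cxcl13, a chemokine that attracts B cells, was also separated, at 2.21, 0.945 and 4.71 FPKM in the atrial-rich and 0.106, 0.242 and 0.598 FPKM in the atrial-poor libraries. These genes were chosen after their values were seen, and variable segments resemble each other closely enough for reads to be shared. Traj26, a T cell receptor joining segment of 60 bases, was at 1.11, 1.07 and 1.09 FPKM in the atrial-rich libraries and 0 in all others, which is about 1 fragment in each.

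The 6 genes separated downward held few of known cardiac role. Tnfaip1, an adaptor of a ubiquitin ligase, was at 20.7, 8.89 and 9.13 FPKM in KO 1, KO 2 and WT 2, against 25.7, 24.3 and 33.5 FPKM in KO 3, WT 1 and WT 3 and 21.3 and 20.8 FPKM in the controls. Cpxm2, a carboxypeptidase-like secreted protein, was at 2.79, 2.25 and 7.56 FPKM in the atrial-rich and 7.98, 9.72 and 12.7 FPKM in the atrial-poor libraries, with WT 2 and KO 3 nearly touching. They were the only genes lower in the atrial-rich set that met the size rule for naming. Dcun1d2, Synpo2 and Gm21981 were the others beside Gm26712.

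Gm26712, a pseudogene of 217 bases, had the widest gap of any gene in either direction, and it was singled out after its values were seen. It was at 0.308, 0.295 and 0.301 FPKM in KO 1, KO 2 and WT 2, against 81.9, 70.8 and 120 FPKM in KO 3, WT 1 and WT 3 and 71.9 and 99.9 FPKM in the controls. For a gene this short, the atrial-rich values rest on very few fragments and show little more than near absence. Gm26712 lies at chr6:57689433-57689649 inside Pyurf, on the same strand. Pyurf itself was at 18.5, 16.4 and 17.3 FPKM in the atrial-rich and 11.3, 11.6 and 16.8 FPKM in the atrial-poor libraries, with the atrial-rich values overlapping. Reads of the overlapping genes cannot be told apart in these files, and the assignment of reads between them was not tested.

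Because the atrial-rich set holds 2 knockout and 1 wild-type library and the atrial-poor set 1 and 2, the gap was also taken inside each genotype. Within the knockout, the log2 difference of KO 1 and KO 2 over KO 3 was 8.73 for Sln, 9.75 for Myl7, 7.00 for Myl4, 6.47 for Mybphl and 2.95 for Nppa. Within the wild type, that of WT 2 over WT 1 and WT 3 was 3.65, 3.41, 3.30, 4.16 and 3.22 for the same genes. The myosin and sarcolipin genes thus had a wider gap inside the knockout, where KO 3 was the poorest library, while Nppa had much the same gap in both and Bmp10 a narrower one in the knockout (4.65 against 5.95 within the wild type). Sbk3 (3.45 within the knockout, 3.42 within the wild type), Tbx5 (1.51 and 1.49) and Fgf12 (2.48 and 2.38) were also close. Counting non-overlap within each genotype only, 79 genes were separated upward and 7 downward. All 73 and all 6 of the main count are among them by construction, because non-overlap across all libraries implies it within each genotype.

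The labelled comparison of genotypes is independent of the rule and was tested with limma across all 8 libraries. Trim21 checks the labels: it was at 0.0481, 0 and 0.0220 FPKM in KO 1, KO 2 and KO 3, against 2.98, 3.29 and 3.37 FPKM in WT 1, WT 2 and WT 3 and 1.98 and 2.18 FPKM in the controls. Trim21 fell in the knockout by 2.04 on the log2 scale (SE 0.10, limma adjusted p = 1.52e-05). In the knockout 30 genes rose (0.289%) and 291 fell (2.8%) at a Benjamini-Hochberg adjusted p under 0.05. With the atrial set as a further term, 27 rose (0.26%) and 255 fell (2.45%), and 25 and 203 of these were the same genes as without it. The median of all genes was -0.12, and a median-ratio scaling, which moved it to 0.00404, left 46 rises and 85 falls. Such p-values reflect the spread among libraries, which may be technical.

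None of the 73 genes separated upward and none of the 6 downward was called between the genotypes. A separated gene has libraries of each genotype on both sides of the split. Its spread within a genotype is therefore wide, with an SE of 2.12 for Sln and 2.31 for Myl7. The lack of calls was thus largely set by the choice of genes and cannot decide whether they differ by genotype. With the atrial set as a term, Mlana alone of these genes was called. It was lower in the knockout by a log2 value of -1.04 (SE 0.13, limma adjusted p = 0.00848), where the fit without the term had given -0.02 (adjusted p = 0.993). The term itself comes from measured Sln levels, and the adjusted p of Mlana was at least 0.544 under every other alternative. Among the 16 other atrial genes tested, Kcna5 fell in the knockout both without the term (log2 -0.78, SE 0.14, limma adjusted p = 0.0244) and with it (log2 -0.78, adjusted p = 0.0415). Hey1 fell without the term (log2 -0.74, limma adjusted p = 0.0382) and missed the threshold with it (adjusted p = 0.0594). Both are atrial list genes whose sets overlapped. Under median-ratio scaling Kcna5 kept its call (adjusted p = 0.0428) and Hey1 did not (0.149).

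**Figure D5:**
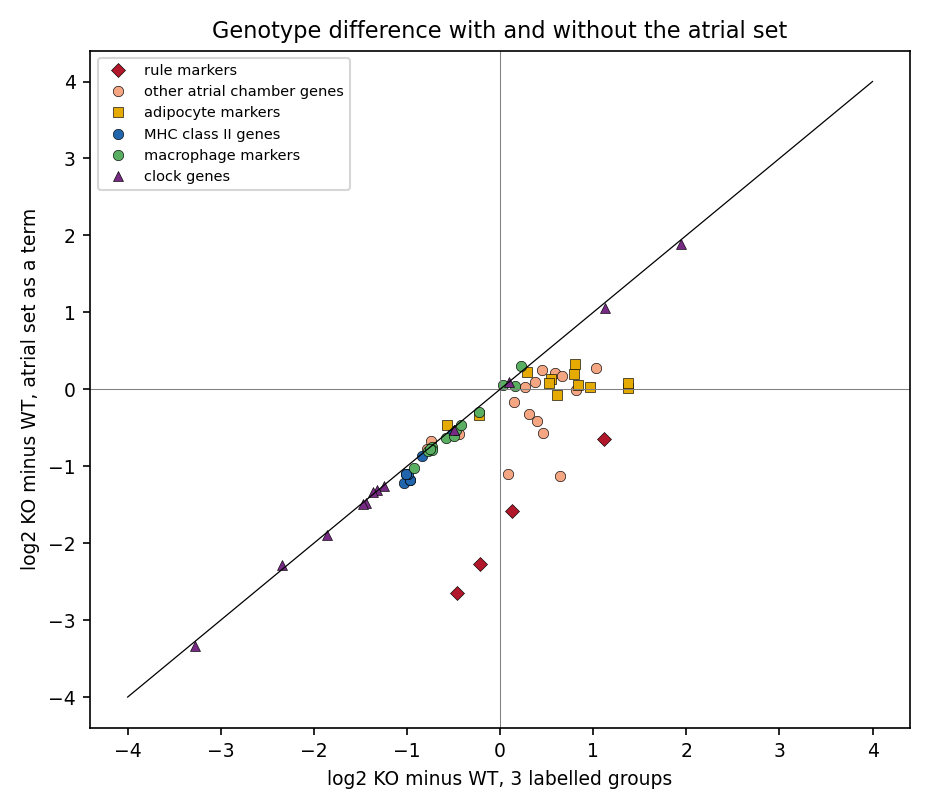
Log2 difference, knockout minus wild type, of listed genes with the atrial set as a term (vertical axis) against the fit of the 3 labelled groups alone (horizontal axis), with the line of equal values. Most atrial genes (red and orange) lie below the line, Kcna5 lies on it and Hey1 above it, and clock genes lie near the line.

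Genes of several other lists fell in the knockout in both fits, and 2 list genes outside the clock list rose in both. These were Uchl1, a neuronal ubiquitin hydrolase, by 1.00 without the term and 0.89 with it (limma adjusted p = 0.0173 and 0.0183), and the globin gene Hbb-bt, by 2.42 and 2.48 (limma adjusted p = 0.00627 and 0.0101). The other beta globin gene listed, Hbb-bs, went the other way without a call, by -0.86 and -0.95 (limma adjusted p = 0.0782 and 0.0751). Hba-a1, Hba-a2 and Alas2 had no call either. The assignment of reads between the beta globin genes was not tested. Over all 10393 genes, 291 fell without the term (2.8%) and 255 with it (2.45%), and 85 under median-ratio and 90 under quantile scaling. Of 8 MHC class II genes, which present antigen, 4 fell in the knockout without the term and 7 with it, and none under median-ratio or quantile scaling. H2-DMa, for example, fell by 0.99 without the term and by 1.10 with it on the log2 scale (limma adjusted p = 0.0160 and 0.00740). Of 15 fibroblast and matrix genes 5 fell without the term, 9 with it and 3 under either scaling. Timp1, a protease inhibitor of injured heart, fell by 1.89 without and 1.94 with the term (limma adjusted p = 0.00421 and 0.00696). Of 13 macrophage markers 6 fell without and 7 with the term, and 1 under median-ratio and 2 under quantile scaling.

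Of 12 clock genes 8 fell and 2 rose, with or without the term, and 7 fell and 2 rose under either scaling. Over all 10393 genes, 291 fell and 30 rose without the term, and 85 fell and 46 rose under median-ratio scaling. Of 12 interferon response genes 5 fell with or without the term, and of 9 heat shock genes 3 fell in both fits; under median-ratio scaling 3 of each list fell. Of 8 stress genes of heart muscle 3 fell without the term (Nppb, Ankrd1 and Gdf15) and Acta1 joined them with it, while 1 fell under median-ratio scaling. The ventricular list had no call in either fit, and its median log2 difference of -0.12 changed sign to 0.04 under median-ratio scaling.

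Depth did not separate the sets. The lowest FPKM values fall on steps of whole fragments, from which 14340000 to 16880000 fragments per library were inferred, and at least 99.6% of low genes lay on such steps within 0.03 fragments. Between 9201 and 9975 genes reached 1 FPKM in a library. Mitochondrial genes took 40.6%, 40.3% and 37.2% of the sum of FPKM times exon length in KO 1, KO 2 and WT 2. In KO 3, WT 1 and WT 3 they took 43.6%, 41.8% and 33.6%, so the sets overlapped. Pearson correlations of log2(FPKM + 1) over 10393 genes were 0.975 to 0.981 within the atrial-rich set, 0.966 to 0.978 within the atrial-poor set and 0.958 to 0.976 between them, a description across genes, which are not independent replicates.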

How the data were processed

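Per the labels' protocols, messenger RNA was isolated from total RNA of hearts and made into 8 libraries. The authors deposited FPKM values for 34745 genes. Tools listed in the submitters' processing notes are edgeR, StringTie 1.3.3b and HISAT2 2.0.4, with build mm10. Not given in the sources used here are their roles, the annotation release, filters and use of strand. A second deposited sheet, of no measured unit, pairs libraries with earlier names, which give animal numbers 2, 5 and 6 for the knockout and 1, 3 and 4 for the myocarditis wild type. The sum of FPKM times exon length lay between 961287 and 966011 in each library, with lengths and gene types from GENCODE M21, which held 98.8% of the gene identifiers and the same coordinates for 79.9%.

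The members of both sets and all gene lists were chosen with earlier results of these data known. Genes at or above 1 FPKM in at least 2 libraries were kept, which removed 24352. Differences were taken on log2(FPKM + 1), a scale that understates changes of low genes, as atrial-rich mean minus atrial-poor mean with a standard error of the difference, and without a test. Named were the 4 atrial markers, every tested atrial and ventricular list gene, separated members of other lists, and up to 15 separated genes in each direction with a mean of at least 5 FPKM in the higher set and no clone name, of which 15 higher and 2 lower qualified. Genotypes were compared by limma 3.58.1 under R 4.3.3 (trend = TRUE, Benjamini-Hochberg threshold 0.05, 3 groups fitted together, 5 residual degrees of freedom). Lists took the most highly expressed row of the 59 symbols that occur more than once. Fragment numbers and floors were inferred from the steps of low FPKM values and cover counting error only. Alternatives covered pseudocount, filter, scaling, genotype or atrial terms, the fold limit, the replicate block and leaving out each library. Some listed genes are not reported here.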

Additional observations from a re-analysis of the deposited data

Results flagged for a closer look

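For 2 genes of the chamber lists, the atrial-rich libraries lay on opposite sides of the atrial-poor libraries in the 2 genotypes. Kcna5, a potassium channel gene of the atrial list, had a log2 difference of 0.13 within the knockout and -0.13 within the wild type. Irx3, a transcription factor of the ventricular list, had -0.24 within the knockout and 0.20 within the wild type. Every library of one genotype stood on one side and every library of the other on the opposite side, the difference between the genotypes was not tested, and with 1 library in one arm of each genotype these values have no spread of their own.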

How the results depend on the processing

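The count of genes separated upward was 73 and stayed between 71 and 75 with a filter over the 6 day 21 libraries, either scaling or genotype as a term. It was 75 with no filter and 79 with non-overlap within genotypes, looser rules that can only add genes. It was 127 with a pseudocount of 0.1, 26 with a pseudocount of 5, 29 with a filter of 5 FPKM in 3 libraries, 683 with no fold limit and 23 with a 4-fold limit. The count downward was 6, and it was 17, 1, 4, 368 and 1 under the same 5 settings. Leaving out 1 library gave 68 to 89 genes upward and 5 to 25 downward, with 25 without WT 2, 24 without KO 3 and 12 without WT 1; a set of 2 libraries overlaps less easily than a set of 3. Of 705 values of named genes under alternatives 655 stayed within the spread between libraries and 50 did not, all 50 under another pseudocount; of 360 list medians 336 stayed within it.

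For the genotype, 30 genes were higher and 291 lower in the knockout. These became 15 and 173 with the stricter filter, 33 and 147 with no filter, 46 and 85 with median-ratio scaling, 49 and 90 with quantile normalization, and 53 and 324 with the atrial marker score as a covariate. Leaving out 1 library gave 20 to 49 higher and 72 to 211 lower, with 72 without KO 2, 80 without WT 1, 116 without KO 3, 163 without WT 2 and 184 without WT 3, where the cause was not tested; the 49 higher genes came without KO 3. Adjusted p-values ranged over these alternatives between 0.0156 and 0.0874 for Kcna5 and between 0.0336 and 0.150 for Hey1. With the replicate block 28 were higher and 225 lower; the adjusted p of Hey1 was 0.0571, and 7 MHC class II, 8 fibroblast and matrix and 3 interferon response genes fell. The replicates share only a number, since the earlier names give them different animal numbers. The correlations of deviations from group means over 10393 genes were -0.09, 0.35 and 0.31 for replicates 1, 2 and 3. Without the separated genes they were 0.10, 0.28 and 0.24, and every library then correlated best with its own number. The libraries of replicate 2 share an atrial set, as do those of replicate 3, while those of replicate 1 do not. For replicates 2 and 3 a pairing and the split therefore cannot be told apart, and pairing was not tested. Depth limits the low genes, some of which rest on a few fragments, as Scgb1a1 does in KO 2.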
